A study of Mus musculus with 4 samples.

Results

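The hedgehog pathway was described through 9 genes of mouse skin: the ligand gene Shh, the receptors and binding proteins Ptch1, Hhip, Boc and Smo, the intracellular inhibitor Sufu and the transcription factors Gli1, Gli2 and Gli3. They were chosen by name, as the pathway's ligand, receptors, effectors and targets, by a rule that uses no measured value, though with earlier results of these data known. Each of the 9 had 1 probe set with a single gene symbol, and all 9 lay above the filter on dim genes, out of 19938 genes on the arrays and 14953 tested. RNA came from isolated skin of mouse embryos at E16.5 (E, embryonic day), hybridised to 4 Affymetrix whole-transcript arrays, 2 per genotype.

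Control embryos were wild type or carried the TRE-Ovol2-Flag transgene, an Ovol2 gene that a tetracycline transactivator switches on, with no such transactivator. Ovol2 BT embryos carried TRE-Ovol2-Flag together with K5-tTA, a transactivator driven by the keratin 5 promoter, so the transgene is directed to basal keratinocytes and not to the dermis. Each array held RNA of 2 mice, so animals cannot be told apart within an array. A control with K5-tTA alone was not analysed here. The labels give the strain as CB6F1 for both control arrays and FVB/N for both Ovol2 BT arrays, although the protocol speaks of littermates. If the strain labels are right, strain and genotype cannot be told apart in any difference described here.

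In this pathway, Shh binds the receptor Ptch1, which otherwise holds back the membrane protein Smo. Released Smo acts through the primary cilium, frees the Gli factors from Sufu, and lets Gli2 and Gli3 switch on target genes. Ptch1, Gli1 and Hhip are themselves targets, so their transcripts are widely read as a measure of pathway activity. In embryonic skin Shh is made by the epithelium of the hair placode and growing follicle, and both that epithelium and the dermal condensate beneath it respond.

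The promoters are shown because Ptch1 and Hhip read lower on both Ovol2 BT arrays, while Gli2, which transmits the signal, did not. RefSeq sequences of build GRCm38.p6 were given for 6 of the 9 genes, as windows of 300 bases. Those for Shh, Gli1 and Boc were not analysed here. The 250 bases before the start are printed 5′ to 3′ on the strand of the gene, all of them on the minus strand, for Ptch1 (chr13:63565736-63565985), Hhip (chr8:80058009-80058258) and Gli2 (chr1:119053620-119053869). Capitals mark a full match, on either strand, to ACCACCC, the inner part of the Gli motif.
Ptch1: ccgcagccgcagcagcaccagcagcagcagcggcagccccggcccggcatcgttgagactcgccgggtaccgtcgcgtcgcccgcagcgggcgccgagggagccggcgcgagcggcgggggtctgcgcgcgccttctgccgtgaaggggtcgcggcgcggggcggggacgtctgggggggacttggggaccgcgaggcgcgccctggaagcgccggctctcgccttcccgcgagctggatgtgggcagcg
Hhip: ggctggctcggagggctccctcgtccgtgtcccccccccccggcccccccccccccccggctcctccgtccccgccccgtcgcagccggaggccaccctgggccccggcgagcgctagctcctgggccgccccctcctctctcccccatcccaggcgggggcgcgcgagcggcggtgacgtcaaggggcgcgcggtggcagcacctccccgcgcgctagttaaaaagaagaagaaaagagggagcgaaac
Gli2: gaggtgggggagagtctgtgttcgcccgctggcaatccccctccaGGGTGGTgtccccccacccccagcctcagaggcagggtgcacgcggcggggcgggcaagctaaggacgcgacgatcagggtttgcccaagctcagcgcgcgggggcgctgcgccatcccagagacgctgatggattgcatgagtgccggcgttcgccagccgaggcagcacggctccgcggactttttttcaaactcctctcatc

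The Gli motif GACCACCCA, on either strand, was in 0 of the 6 windows, and in 0.253% of the 32851 promoter windows of the same length. Its inner part ACCACCC, which overlaps it, was in 1 of the 6, that of Gli2, and in 4.61% of all windows. The letters CCGTTA, the core of the site known for Ovo family factors such as Ovol2, were in 0 of the 6 windows and in 2.76% of all. These searches say only which letters lie in these windows. The 250 bases printed for Ptch1, Hhip and Gli2 were 78.4%, 76% and 67.2% G or C.

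Values are the deposited PLIER intensities on a linear scale, and differences are on the log2(intensity + 16) scale, which slightly understates the change of dim genes. Differences are taken only between arrays. Words such as bright and dim, and the summed intensities, refer to probe set intensity and are not read as RNA amounts. Ovol2 itself read 176 and 297 in control and 7798 and 7949 in Ovol2 BT skin, so its level matches the label of every array, a log2 fold of 5.01 (SE 0.27, limma adjusted p = 0.0256). The fit called 4 of 14953 genes (0.0268%) at an adjusted p under 0.05. Ovol2 BT replicate 2 correlated with the other arrays at r = 0.924 to 0.935 across genes tested, against 0.976 to 0.983 among the other 3. Genes are not independent replicates. All embryos are labelled female, yet Y-linked transcripts were high on both replicate 1 arrays. Eif2s3y read 1101 and 1339 on the replicate 1 arrays of the control and Ovol2 BT groups and 55.9 and 10.4 on the replicate 2 arrays. Xist, in the same order, read 118 and 312 on the replicate 1 arrays and 9142 and 1773 on the replicate 2 arrays. The part of sex in differences between replicates was not tested.

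None of the 9 hedgehog genes passed the test over all genes. Shh, Ptch1, Hhip and Gli1 each read lower on both Ovol2 BT arrays than on both control arrays, at 61.4% to 77.2% of the control mean intensity. Boc, Smo, Sufu, Gli2 and Gli3 overlapped between the groups, at 98.9% to 116.9% of it. Whether these 4 genes differ from the other 5 was not tested. In limma 3 of the 9 had an unadjusted p under 0.05, all lower, against 4.22% of all genes tested in either direction, 1.73% lower and 2.49% higher. The groups did not overlap, with Ovol2 BT lower, for 4 of 9, against 14.1% of all genes. They did not overlap with Ovol2 BT higher for 0 of 9, against 20.1% of all genes. The smallest adjusted p among the 9 was 0.766, that of Hhip.

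**Figure D1:**
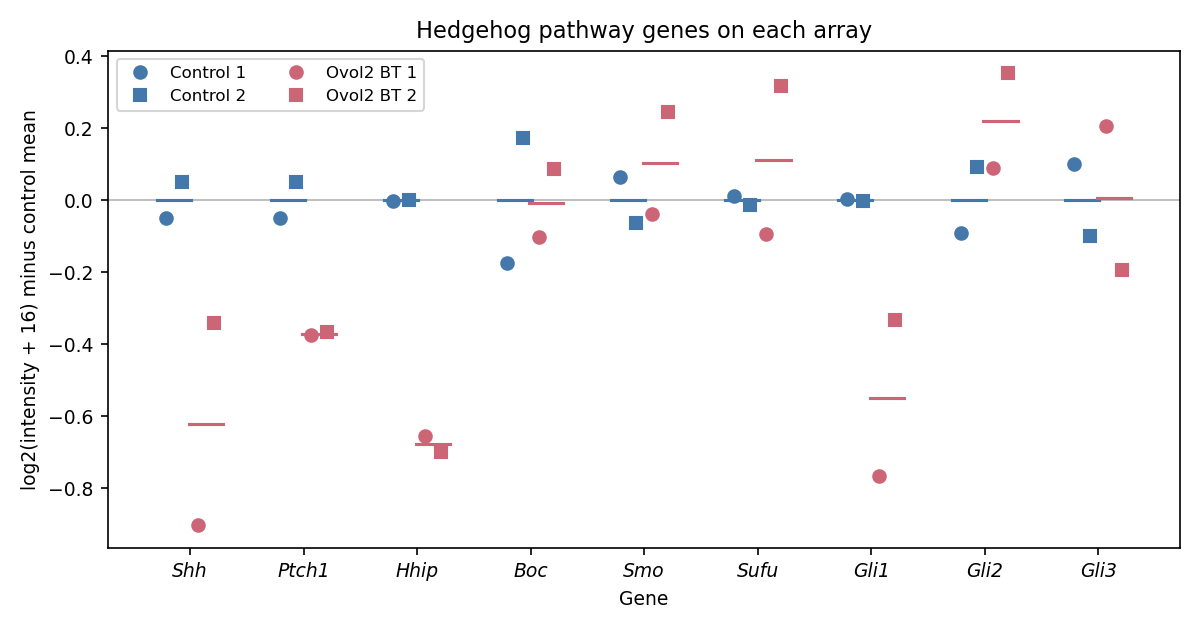
Level of each hedgehog gene on each of the 4 arrays, as log2(intensity + 16) minus the control mean. Points are arrays (circles replicate 1, squares replicate 2), short lines are group means of 2 arrays. Shh, Ptch1, Hhip and Gli1 lie below both controls on both Ovol2 BT arrays, and the other 5 genes overlap.

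Shh, the secreted ligand (probe set 10528872), read 691 and 741 in control and 375 and 561 in Ovol2 BT skin. Both Ovol2 BT values were below both controls, and Ovol2 BT replicate 1 was the lowest by far. On the log2 scale the means were 9.51 ± 0.07 (SD, n = 2) in control and 8.89 ± 0.40 (SD, n = 2) in Ovol2 BT skin. The log2 fold was -0.62 (SE 0.25, 95% interval -1.24 to -0.0021, limma adjusted p = 0.907), with 4.7% of all genes tested at that fold or below. The Ovol2 BT arrays differed from each other by 0.56, nearly as much as the groups did. Without Ovol2 BT replicate 1 the fold was -0.34, and without Ovol2 BT replicate 2 it was -0.90. In whole skin, fewer Shh-making cells and less Shh RNA per cell cannot be told apart, and the same holds for every gene described here.

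Ptch1, the receptor for Shh and a target of the pathway (probe set 10410039), read 4802 and 5146 in control and 3830 and 3853 in Ovol2 BT skin. Here the Ovol2 BT arrays were nearly equal, and the groups were apart by 0.32 at their nearest values. The log2 fold was -0.37 (SE 0.11, 95% interval -0.64 to -0.10, limma adjusted p = 0.902), and it was -0.37 with either Ovol2 BT array left out. A fold of this size or below was seen for 11.1% of all genes tested, and a gap as wide as that of Ptch1 with Ovol2 BT lower for 1.28%.

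Hhip, a membrane protein that binds hedgehog ligands and limits their reach (probe set 10579894), gave the tightest values of the 9. It read 496.3 and 497.2 in control and 309.9 and 299.8 in Ovol2 BT skin, 61.4% of the control mean. The replicates of each group agreed closely, and the groups lay 0.65 apart at their nearest values, a gap that 0.247% of all genes tested reached in this direction. The log2 fold was -0.68 (SE 0.17, 95% interval -1.09 to -0.26, unadjusted p = 0.00818, limma adjusted p = 0.766). It lay between -0.70 and -0.65 with any array left out. Without Ovol2 BT replicate 1 the adjusted p of Hhip was 0.0239, the only call among the 9 genes in any setting, in a fit that called 2455 genes and assumed the lone Ovol2 BT array to vary like the controls.

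Gli1, the Gli factor that is switched on by the pathway and adds to its output (probe set 10373179), read 1345 and 1340 in control and 783 and 1063 in Ovol2 BT skin. The controls were nearly equal and both Ovol2 BT arrays were below them. The log2 fold was -0.55 (SE 0.22, 95% interval -1.10 to 0.00066, limma adjusted p = 0.907), with 6.02% of all genes tested at that fold or below. It was -0.33 without Ovol2 BT replicate 1 and -0.77 without Ovol2 BT replicate 2. For Gli1, as for Shh, Ovol2 BT replicate 1 was lowest and replicate 2 lay between it and the controls. Between the Ovol2 BT arrays (replicate 2 minus replicate 1) Gli1 differed by 0.43 and Shh by 0.56, but Ptch1 and Hhip by only 0.0085 and -0.05. Replicate 2 was also the higher for Sufu (0.41), Smo (0.28), Gli2 (0.26) and Boc (0.19), and the lower for Gli3 (-0.40). A lower value on Ovol2 BT replicate 1 was thus not particular to Shh and Gli1.

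**Figure D2:**
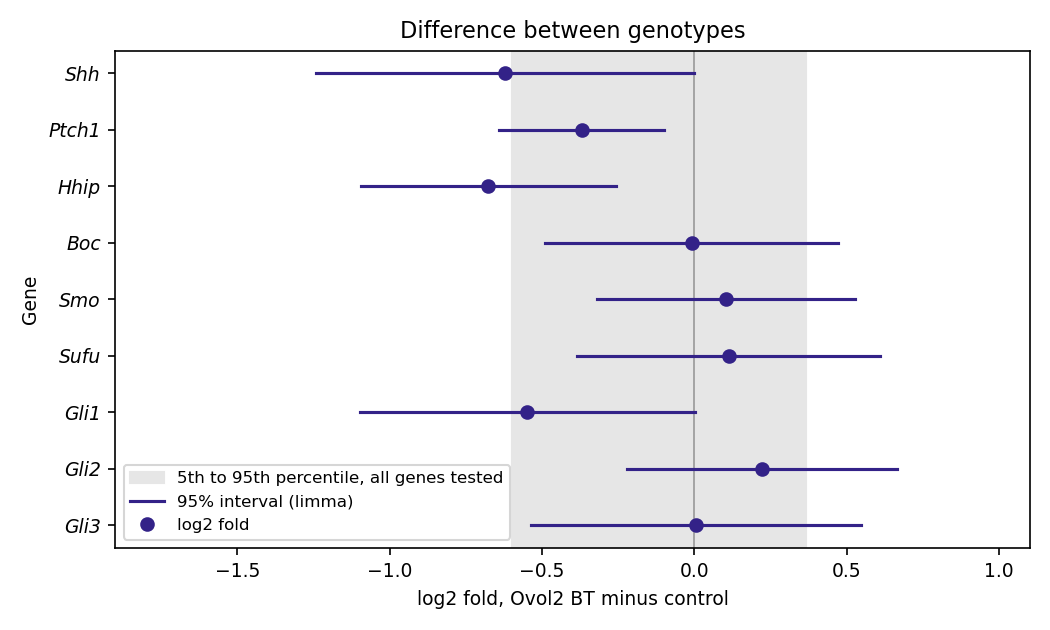
Log2 fold (Ovol2 BT minus control, n = 2 arrays per group) of each hedgehog gene with its 95% interval from limma. The grey band spans the 5th to 95th percentile of the folds of all genes tested, -0.60 to 0.37; Shh (-0.62) and Hhip (-0.68) lie just outside it.

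The other genes, which carry the signal from the membrane to the nucleus, overlapped between the groups. Smo, the membrane protein that starts the intracellular signal (probe set 10536917), read 2438 and 2232 in control and 2271 and 2768 in Ovol2 BT skin. Its log2 fold was 0.10 (SE 0.17, 95% interval -0.32 to 0.53, limma adjusted p = 0.934). Boc, a co-receptor that binds Shh alongside Ptch1 (probe set 10439612), read 1812 and 2307 in control and 1902 and 2170 in Ovol2 BT skin. Both Ovol2 BT values of Boc lay within the control range, and its log2 fold was -0.01 (-0.00896, SE 0.19, 95% interval -0.49 to 0.47). The control arrays of Boc differed from each other by 0.35, the widest control difference of the 9 genes.

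Sufu, which holds Gli factors in the cytoplasm (probe set 10463645), read 1834 and 1801 in control and 1702 and 2270 in Ovol2 BT skin. One Ovol2 BT array was below and the other above both controls, and the log2 fold was 0.11 (SE 0.20, 95% interval -0.38 to 0.61). Gli2, the main activator of the pathway in skin (probe set 10357137), read 1849 and 2102 in control and 2097 and 2522 in Ovol2 BT skin. Its lower Ovol2 BT value was just under the higher control value, and the log2 fold was 0.22 (SE 0.18, 95% interval -0.22 to 0.66, limma adjusted p = 0.907). Gli3, which acts largely as a repressor when the signal is off (probe set 10403727), read 1483 and 1289 in control and 1597 and 1206 in Ovol2 BT skin. Its control values lay between the Ovol2 BT values, and the log2 fold was 0.01 (0.00559, SE 0.22, 95% interval -0.54 to 0.55). These intervals do not show that the 5 genes were equal in the groups: for each of them a fold as large as that of Ptch1 lies inside the interval on at least 1 side.

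Over the 9 genes the median log2 fold was -0.01 (-0.00896), that of Boc, against 0.03 over all genes tested. Folds were below 0 for 5 of 9 genes and for 45.6% of all genes. The folds spanned the range from -0.68 for Hhip to 0.22 for Gli2. The median absolute difference between the control arrays was 0.10 over the 9 genes and 0.13 over all genes, and between the Ovol2 BT arrays it was 0.28 for both. The folds of Boc, Smo, Sufu and Gli3 went from one side of 0 to the other when 1 array was left out, and those of Shh, Ptch1, Hhip and Gli1 stayed below 0.

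**Figure D3:**
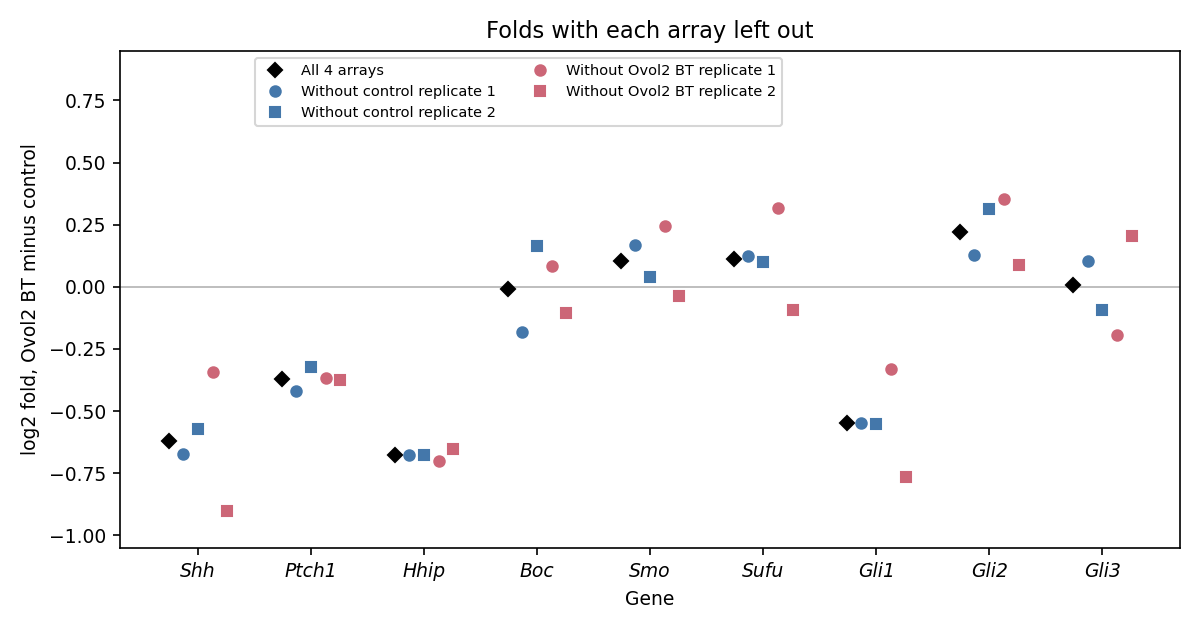
Log2 fold (Ovol2 BT minus control) of each hedgehog gene with all 4 arrays (black diamonds) and with 1 array left out (blue, a control array; red, an Ovol2 BT array). Shh and Gli1 move most when an Ovol2 BT array is left out (-0.90 to -0.34 and -0.77 to -0.33), and Ptch1 and Hhip move little.

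Beyond the 9 genes, 40 further genes of the pathway were listed by role, of which 37 were measured here and 34 tested. None passed over all genes tested in limma. There 2 of 34 had an unadjusted p under 0.05, both higher, against 4.22% of all genes tested (2.49% higher). Their median log2 fold was 0.03, the same as over all genes. Folds were above 0 for 20 and below 0 for 14, where 45.6% of all genes tested were below 0. The groups did not overlap for 5 lower and 8 higher genes of 34, near the 14.1% and 20.1% of all genes tested.

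Among ligands and their release, the other hedgehog ligands were Ihh and Dhh. Ihh, known from cartilage, read 274 and 302 in control and 342 and 274 in Ovol2 BT skin. Dhh, known from Schwann cells, read 206 and 192 in control and 173 and 244 in Ovol2 BT skin. Both overlapped between the groups, with log2 folds of 0.08 (SE 0.18) for Ihh and 0.04 (SE 0.20) for Dhh. Dhh was dim, with log2 means of 7.75 in control and 7.79 in Ovol2 BT skin against the filter level of 7.32. Whether Ihh or Dhh differed from Shh was not tested. Disp1, which releases lipid-bound Shh from the cell that makes it, read 2835 and 3144 in control and 3392 and 3679 in Ovol2 BT skin, a log2 fold of 0.24 (SE 0.13, limma adjusted p = 0.907). Scube2, a secreted helper of that release, differed by 0.18 (SE 0.24), and by -0.03 without control replicate 1.

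Of the further receptors, Gas1, a co-receptor of the dermis and other mesenchyme, read 3860 and 4263 in control and 4144 and 4251 in Ovol2 BT skin, a log2 fold of 0.05 (SE 0.12). Cdon and Lrp2, also co-receptors, were dim on every array (115 to 132 and 114 to 146) and lay under the filter, so neither was tested.

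The Gli factors and the genes that control them at the primary cilium had a median log2 fold of -0.09 over 19 genes tested, with 0 past the threshold and 0 at an unadjusted p under 0.05 in limma. The largest folds besides Gli1 were those of Ift88 and Kif3a, parts of the transport machinery that builds the cilium. Ift88 read 383 and 422 in control and 334 and 206 in Ovol2 BT skin (log2 fold -0.59, SE 0.26). Kif3a read 561 and 660 in control and 529 and 324 in Ovol2 BT skin (log2 fold -0.54, SE 0.28). Both were lowest on Ovol2 BT replicate 2, the array that stood apart over all genes, and without it their folds were -0.26 and -0.20. Shh and Gli1 showed the reverse, with their lowest values on Ovol2 BT replicate 1.

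Further target genes went both ways. Mycn, a growth regulator, read 454 and 462 in control and 274 and 384 in Ovol2 BT skin, with Ovol2 BT replicate 1 lowest as for Gli1 (log2 fold -0.48, SE 0.22, limma adjusted p = 0.907). Bcl2, a survival factor, read 1894 and 2156 in control and 1985 and 1027 in Ovol2 BT skin (log2 fold -0.50, SE 0.33), and only -0.03 without Ovol2 BT replicate 2. Sox9, a transcription factor of follicle progenitors, was higher on both Ovol2 BT arrays, at 1449 and 1630 against 2219 and 2332 (log2 fold 0.56, SE 0.16, unadjusted p = 0.0165, limma adjusted p = 0.902). Osr1, a mesenchymal transcription factor named here after its values were seen, was higher too, at 3195 and 3043 against 3923 and 4547 (log2 fold 0.44, SE 0.13, unadjusted p = 0.0198). Of the 11 further targets tested, 9 had folds above 0 and 2 below, where 45.6% of all genes tested were below 0. Several of the 9 lay near 0, among them Jag2 (0.01, SE 0.23), Snai1 (0.01, SE 0.15) and Ccnd2 (0.04, SE 0.13). The direction of the list as a whole was not tested. All the further targets are also known to respond to other signals.

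**Figure D4:**
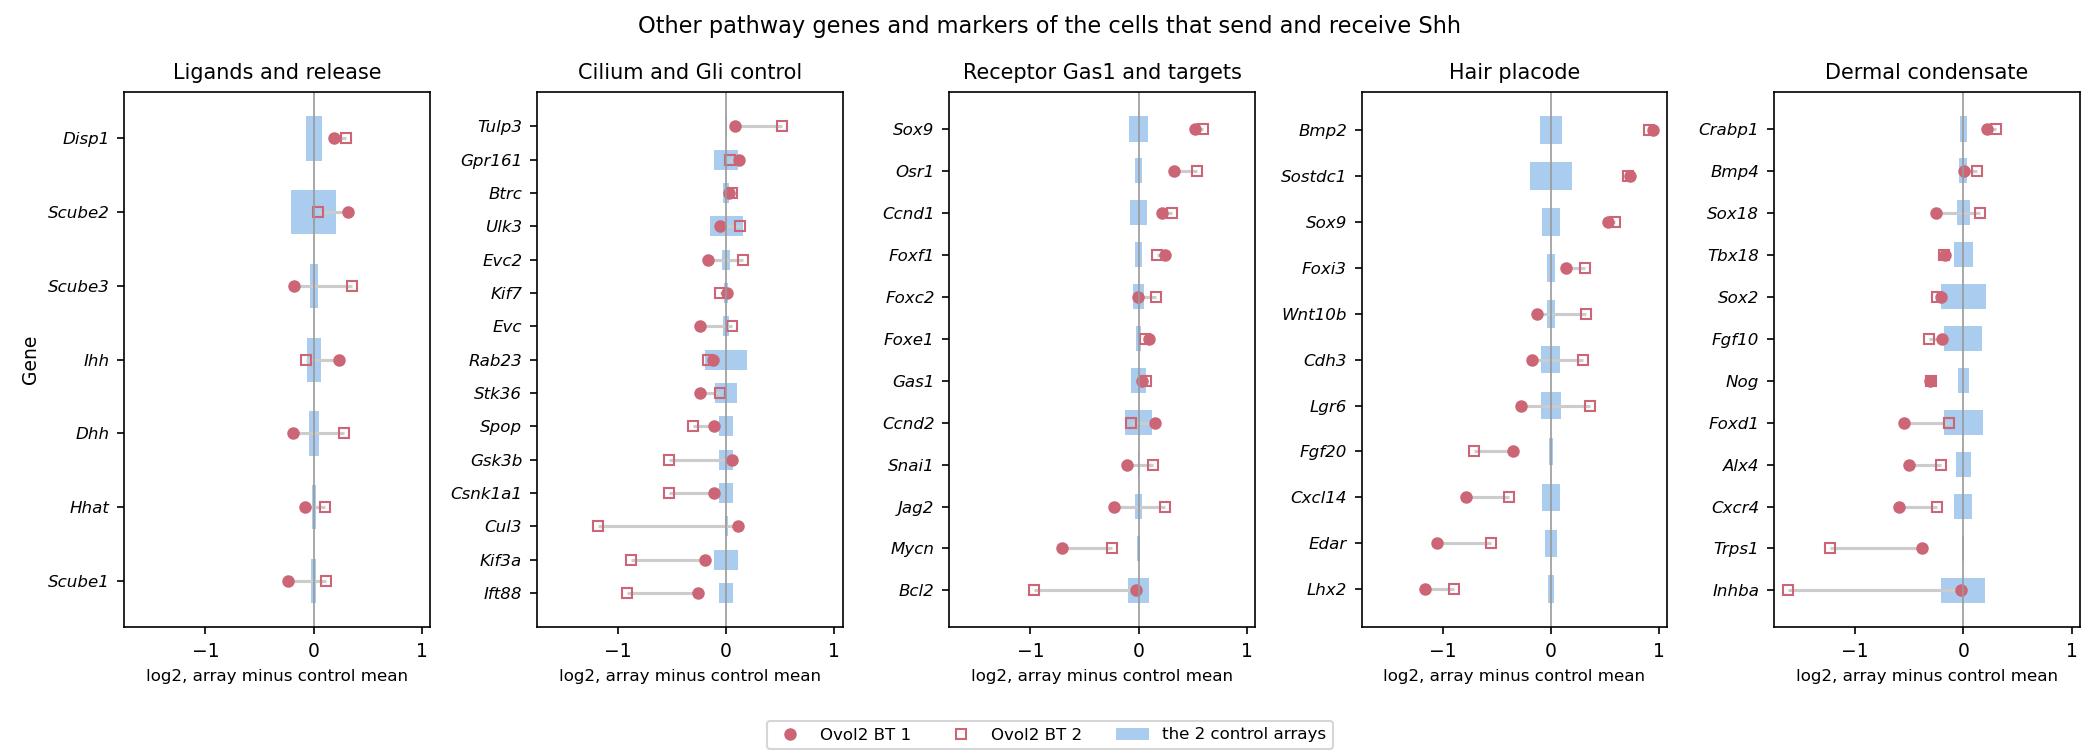
Each Ovol2 BT array minus the control mean (log2 scale) for the tested pathway genes outside the 9 and for markers of hair placode and dermal condensate; the blue bar spans the 2 control arrays. Mycn, Lhx2 and Edar lie below the controls on both Ovol2 BT arrays, Sox9 and Bmp2 above them, and Ift88, Bcl2 and Inhba rest largely on Ovol2 BT replicate 2.

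Markers of the cells that send and receive Shh were read beside these values. Of 12 hair placode markers 11 were tested, 4 did not overlap with Ovol2 BT lower and 4 with Ovol2 BT higher (14.1% and 20.1% of all genes tested), and the median log2 fold was 0.06. Lhx2, a placode transcription factor, read 1480 and 1428 in control and 639 and 774 in Ovol2 BT skin (log2 fold -1.03, SE 0.20, limma adjusted p = 0.498). Edar, the ectodysplasin receptor of the placode, read 775 and 839 in control and 381 and 546 in Ovol2 BT skin (log2 fold -0.80, SE 0.24, limma adjusted p = 0.907). Bmp2, also a placode gene, was higher, at 994 and 857 against 1795 and 1740. The summed placode intensity was 17531 and 19427 in control and 18623 and 21308 in Ovol2 BT skin. Bright genes weigh most in it: Sostdc1 was higher (2720 and 3551 against 5181 and 5097) and Cxcl14 lower (4005 and 4509 against 2458 and 3248). No marker was at 0, the dimmest, Dkk4, having a mean log2 level of 6.95. Dkk4 read 170 and 147 in control and 89 and 58 in Ovol2 BT skin, and lay under the filter, so it was not tested.

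Of 12 dermal condensate markers, all tested, 10 had folds below 0 and 2 above, with a median of -0.28, where 45.6% of all genes tested were below 0. The groups did not overlap for 7 lower genes and 1 higher gene of the 12, against 14.1% and 20.1% of all genes tested, and none passed over all genes in limma. Cxcr4, a chemokine receptor of the condensate, read 1117 and 1253 in control and 778 and 995 in Ovol2 BT skin, and Nog, the BMP antagonist, 319 and 297 against 245 and 248. The summed intensity was 22505 and 21858 in control and 21659 and 22102 in Ovol2 BT skin, carried by the bright Crabp1, which was higher (9272 and 8854 against 10561 and 11156). The part of placode and condensate cell numbers in the values of Shh, Ptch1, Hhip and Gli1 was not tested. Atoh1, the transcription factor of Merkel cells, which need Shh in hairy skin, read 280 and 303 in control and 198 and 150 in Ovol2 BT skin (log2 fold -0.71, SE 0.18, limma adjusted p = 0.790). Of the 7 Merkel cell markers tested 1 passed, the keratin Krt8, which rose by 2.34 and is also a keratin of periderm and simple epithelia. The summed Merkel intensity was 4261 and 4238 in control and 12023 and 13179 in Ovol2 BT skin, carried by Krt8 (2037 and 1901 against 9389 and 10662), and 4 of the 7 folds were below 0.

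The tissue label was borne out by bright epidermal and dermal genes on every array, among them the suprabasal keratins Krt1 (16298 to 17564) and Krt10 (15043 to 16382) and the collagen Col1a1 (11552 to 12246). Krt5, the keratin whose promoter drives the transactivator, read 14222 and 13988 in control and 7523 and 7928 in Ovol2 BT skin (log2 fold -0.87, SE 0.06, limma adjusted p = 0.060). Krt14, its partner in basal cells, read 9914 and 9360 against 5573 and 6664. Skeletal muscle genes differed between arrays of one genotype, with summed intensities of 44378 and 25564 in control and 24335 and 47930 in Ovol2 BT skin. Over the same control arrays Gli1 and Hhip differed by -0.0050 and 0.0027 on the log2 scale (replicate 2 minus replicate 1), and Shh and Ptch1 by 0.10 each. Over the Ovol2 BT arrays Shh and Gli1 differed by 0.56 and 0.43, and Ptch1 and Hhip by 0.0085 and -0.05 (replicate 2 minus replicate 1). The part of muscle content in these values was not tested. Erythroid markers also differed within a genotype, at 3525 and 6930 in control and 4106 and 14993 in Ovol2 BT skin.

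The genes whose profile over the 4 arrays lay nearest to the mean of Gli1 and Ptch1 were Grb14, Pter, Phf7 and Abcc4. The measure was the distance between log2 profiles centred on their own means, and these 4 lay at 0.06 to 0.07. With 4 arrays many genes are near by any measure: 407 genes outside the pair were as near as Hhip (0.29) and 431 as near as Shh (0.29). Boc (0.50), Smo (0.58), Sufu (0.59), Gli3 (0.66) and Gli2 (0.69) lay farther, with 3792 to 9869 genes as near. Because Gli1 and Ptch1 were lower on both Ovol2 BT arrays, genes that were not lower lie farther by construction. The distances therefore largely restate the group differences given above.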

How the data were processed

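Total RNA of E16.5 skin was measured on 4 arrays. The authors deposited 1 linear intensity value per probe set and array, made with Affymetrix Expression Console 1.1.1 and PLIER 2.0, per the submitters' processing notes. The normalisation between arrays and the probe sets' genome build were not stated in the labels or files used. Median intensities were 282 and 299.5 in control and 303.5 and 266 in Ovol2 BT skin. The number of arrays limits the precision.

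Of 35557 probe sets, 21789 had 1 gene symbol, 1621 several and 12147 none listed. Only the first kind was used. Symbols were updated by Entrez number through the RefSeq table of GRCm38.p6, which held 21698 of them. The brightest probe set per gene was kept (999 of 19938 genes had several), and log2(intensity + 16) was taken. Genes with a mean under the 25th percentile (7.32) were left out. limma 3.58.1 in R 4.3.3 fitted Ovol2 BT minus control with an intensity trend (2 residual and 3.44 prior degrees of freedom, two-sided), with Benjamini-Hochberg adjustment over 14953 genes. An adjusted p under 0.05 was called changed. The fit was also tested on simulated data. At an adjusted p under 0.05 it recovered 15.9% of genes given a log2 fold of 0.5 and 49.8% of those given 1. The simulated spread was that of the control arrays, reshuffled over genes, so any tie between spread and intensity was removed. Their median absolute difference was 0.13 over all genes tested, against 0.28 between the Ovol2 BT arrays. With 2 arrays a group, the smallest p of an exact permutation test is 0.333, and none was run. The labels call the replicates biological; the p-values measure the spread between these pools of 2 mice.

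The 9 genes and all lists were chosen with earlier results of these data known. Genes named were the 9, Ovol2, per pathway list those past the threshold and the 3 of largest fold, bright defining markers, and the 4 nearest profiles. Other markers, and pathway genes named for their role (Ihh, Dhh, Gas1, Cdon, Lrp2), were chosen after their values were seen. Some listed genes were not analysed here. Alternatives covered normalisation, offset, filter, probe set choice, variance trend, replicate block and leaving out each array. Columns of other samples in the table numbered 0.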

Additional observations from a re-analysis of the deposited data

How the results depend on the processing

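Shh, Ptch1, Hhip and Gli1 kept log2 folds below 0, and Gli2 one above 0, under every alternative run that tested them; with the filter at the 50th percentile Hhip was left out. None of the 9 was called in limma under any setting except Hhip without Ovol2 BT replicate 1, so that the count of hedgehog genes called lay between 0 and 1 over the fits leaving out 1 array. At an unadjusted p under 0.05 in limma, the reported fit had 3 of the 9, against 4.22% of all genes tested. The alternatives listed above that kept all 4 arrays had 2 to 4 hedgehog genes. Over all genes they had 362 (filter at the 50th percentile) to 815 (no filter). The median over the 9 was -0.01 in the reported fit, 0.043 with median centring and -0.19 to -0.094 leaving out 1 array. Boc was 0.043 with median centring and -0.18 to 0.16 leaving out 1 array. Gli3 was -0.016 with cyclic loess and -0.19 to 0.21 leaving out 1 array, where Smo was -0.039 to 0.25, Sufu -0.094 to 0.32 and Scube2 -0.032 to 0.39. The cause was not tested. Without Ovol2 BT replicate 1, Ift88 (-0.91), Kif3a (-0.88), Bcl2 (-0.97) and Sox9 (0.60) passed too. Over all genes 4 were called. With cyclic loess limma called 0 (684 at an unadjusted p under 0.05) and with no intensity trend 0 (599), where Ovol2 had adjusted p-values of 0.0797 and 0.0594. Leaving out 1 array gave 4 to 2455 calls: 7 without control replicate 1, 107 without Ovol2 BT replicate 2 and 2455 without Ovol2 BT replicate 1. The lone array is there assumed to vary like the other group. With the replicate number as a block 9 genes were called, and 0 of the 9 hedgehog genes. Deviations of same-numbered arrays correlated at -0.17, so the numbers were not taken to pair the arrays. The Y-linked transcripts and Xist did go with the replicate number in both groups. Crossing the numbers, chosen after seeing the data, gave 5 calls and 0 hedgehog genes.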
